A study of Mus musculus with 58 samples.

Results

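The 10 genes described here act in fatty acid uptake and lipid droplets. They are Cd36, Fabp1, Fabp2, Fabp3, Plin2, Plin4, Plin5, Cidec, Vldlr and Slc27a1, taken by symbol from the kidney table and by the same RefSeq transcripts from the liver table. They occupy 17 of 33392 transcript rows and are 10 of the 24122 genes that remain once rows are summed by symbol. Their RNA was measured in 58 sequencing libraries of mouse liver and kidney, taken after 1 gavage of trichloroethylene (TCE), of tetrachloroethylene (PCE) or of the vehicle.

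Fatty acids reach a cell bound to albumin or inside lipoproteins, cross the membrane with the help of CD36 and the SLC27 transport proteins, and are carried in the cytosol by fatty acid binding proteins. Fat that is not burned is esterified and stored in lipid droplets, whose surface is coated by perilipins, and CIDEC lets droplets merge and grow. Several of these genes are known targets of PPARα, the nuclear receptor that fatty acids activate in hepatocytes and in the proximal tubule.

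The mice were male B6C3F1/J, a hybrid strain, aged 5 to 6 weeks when obtained, although a separate strain label reads C57BL/6. TCE was given at 24, 80, 240 or 800 mg/kg and PCE at 30, 100, 300 or 1000 mg/kg, doses of near equal molar size named here by the labels' 0.22, 0.67, 2 and 6 mmol/kg. The molecules differ at a single position, where PCE carries chlorine and TCE hydrogen, and controls of each chemical received the same vehicle, 5% of the surfactant Alkamuls EL-620 in saline at 5 mL/kg. Of the 20 groups, liver 0.67 mmol/kg PCE and kidney PCE vehicle had 2 libraries and the others 3.

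Liver libraries totalled 30932385 to 125880542 counts and kidney libraries 23247565 to 32420329, with vehicle and 6 mmol/kg libraries sequenced more deeply in liver. The hepatocyte list (Alb, Ttr, Apoa1, Ass1, Cps1) summed to 71777 to 140890 CPM in liver and to 221 to 582 CPM in kidney. The proximal tubule list (Slc34a1, Lrp2, Cubn, Slc5a2, Slc22a6) summed to 12735 to 21334 CPM in kidney and to 0.322 to 4.43 CPM in liver. One kidney library, replicate 3 of 0.67 mmol/kg TCE, stood apart with 5106 CPM of 7 adrenal cortex genes, against at most 16.6 CPM in the other 28. Levels here are CPM, read counts scaled to a common normalized library size, and differences are log2 fold changes with their standard error (SE). Calls are at a Benjamini-Hochberg adjusted p under 0.05 over all genes tested with edgeR's quasi-likelihood test. In whole tissue, fewer cells of a type and less RNA per cell cannot be told apart.

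The vehicle libraries first show where each gene was active. Here CPM come from a joint normalization of both tissues, over 6 liver and 5 kidney libraries. Liver Fabp1, the fatty acid binding protein of hepatocytes (chromosome 6, 71199879 to 71205034), stood at 5333 ± 2156 CPM (SD, n = 6) in liver and 9.01 ± 3.61 CPM (n = 5) in kidney. Liver libraries held between 2246 and 8427 CPM and kidney libraries between 5.89 and 14.9 CPM, so the tissues did not overlap, and the kidney level was lower by 9.17 ± 0.40 on the log2 scale, that is, -9.17 (adjusted p = 2.13e-24). Fabp2, the intestinal form (chromosome 3, 122895072 to 122899506), was at 83.2 ± 22.4 CPM in liver and at 0 counts in each of the 5 kidney vehicle libraries. Set against a floor of 3 counts per library, liver Fabp2 was at least 1057-fold higher.

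Fabp3, the heart and muscle form (chromosome 4, 130308738 to 130315463), showed the opposite tissue pattern. It stood at 56.7 ± 4.73 CPM in kidney and 0.580 ± 0.257 CPM in liver, a difference of 6.65 ± 0.20 (adjusted p = 3.60e-30). Both receptors also had higher levels in kidney in this series. Cd36, the fatty acid translocase (chromosome 5, 17781690 to 17888959), was at 14.2 ± 2.60 CPM in kidney and 0.151 ± 0.106 CPM in liver (6.60 ± 0.35, adjusted p = 2.91e-21). Vldlr, which takes up triglyceride-rich lipoproteins (chromosome 19, 27216480 to 27254231), was at 2.74 ± 0.249 CPM in kidney. Of the 6 liver vehicle libraries, 3 had 0 counts of Vldlr and the others 1 to 4, so its levels are given without a test. Slc27a1, a transport protein that also activates fatty acids (chromosome 8, 71568728 to 71587307), was at 38.1 ± 1.84 CPM in kidney and 10.9 ± 1.68 CPM in liver (1.80 ± 0.14, adjusted p = 1.40e-15).

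Among the droplet genes, 2 were higher in liver. Plin2, the perilipin found on droplets of most cells (chromosome 4, 86626910 to 86670217), was at 672 ± 130 CPM in liver and 60.1 ± 3.38 CPM in kidney (-3.48 ± 0.17, adjusted p = 3.82e-22). Plin5, a perilipin of tissues that burn fat (chromosome 17, 56111597 to 56117606), was at 5.72 ± 2.29 CPM in liver and 0.450 ± 0.130 CPM in kidney (-3.62 ± 0.34, adjusted p = 5.57e-13). Its neighbour Plin4, best known from adipocytes and muscle (chromosome 17, 56100587 to 56109948), was at 10.6 ± 3.92 CPM in liver and 7.51 ± 6.78 CPM in kidney, and the libraries overlapped (-0.66 ± 0.55, adjusted p = 0.281). Cidec (chromosome 6, 113424634 to 113435760) was near the limit of detection in both tissues, at 0.147 ± 0.0334 and 0.220 ± 0.316 CPM (0.14 ± 0.80, adjusted p = 0.887). Fabp2 in kidney and Vldlr in liver were too low to pass the count filter of that tissue and are not counted here. Of the 8 members that passed in both tissues, 6 differed between them, where 72.9% of 14949 genes tested were called.

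**Figure D1:**
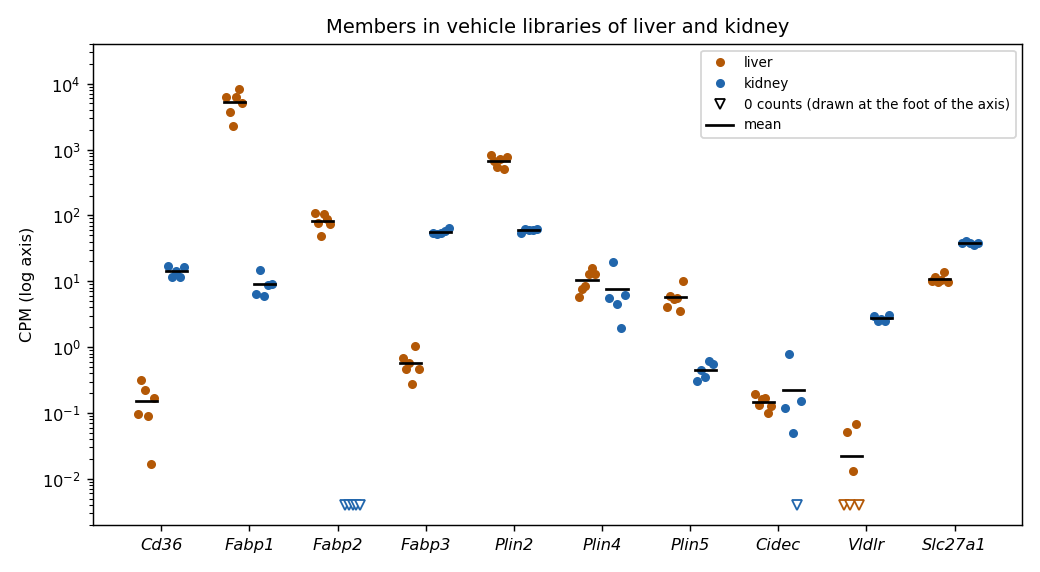
CPM on a log axis for each vehicle library of liver (6) and kidney (5), with black bars for means and open triangles for libraries at 0 counts. Fabp1 and Plin2 sit higher in liver, Cd36, Fabp3, Vldlr and Slc27a1 sit higher in kidney, and the Plin4 and Cidec points overlap.

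Levels of different genes can be set beside each other only per length, here CPM per kilobase of the longest transcript. In liver vehicle libraries the order began with Fabp1 at 9643 ± 3898, Plin2 at 356 ± 68.8 and Fabp2 at 86.3 ± 23.2 CPM per kilobase, with no overlap between these neighbours. Slc27a1 (3.89 ± 0.600), Plin5 (2.88 ± 1.15), Plin4 (1.84 ± 0.682) and Fabp3 (0.705 ± 0.312) followed, each overlapping the next. Cidec, Cd36 and Vldlr came last, all under 0.1 CPM per kilobase on average. In kidney the order was Fabp3 at 68.9 ± 5.75, Plin2 at 31.8 ± 1.79, Fabp1 at 16.3 ± 6.52 and Slc27a1 at 13.6 ± 0.657 CPM per kilobase. Fabp1 and Slc27a1 overlapped there, as did Plin4 with Vldlr and Plin5 with Cidec. Cd36, Cidec, Plin5 and Vldlr have 2 or more transcript rows, and reads shared by isoforms were set aside in counting, so their levels are understated.

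The row counts show how far this goes. Cd36 has 5 rows, and in kidney 3 of them carried 39.0%, 41.2% and 19.6% of its counts, while the other rows held 0 and 0.241%. In liver, on 261 counts in all, the same 3 rows carried 25.7%, 62.1% and 1.15%, and the other rows 0 and 11.1%. The row shares of Cd36 thus differed between the tissues, and the part of isoform use in its differences was not tested. Cidec and Vldlr each had all counts in 1 of 2 rows in both tissues. Plin5 had 84.9% of its kidney counts and 61.6% of its liver counts in the same row. The other 6 members have 1 row each. Exons of Fabp3 overlap those of Zcchc17 by 81 bases and those of Gm10570 by 80, and exons of Plin4 overlap those of Hdgfl2 by 17, in each case on the opposite strand, and reads in those stretches cannot be assigned without a stated strand setting.

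At 6 mmol/kg, the highest dose, the clearest change in the group was in kidney Fabp1. After PCE its level was 66.9, 70.9 and 52.8 CPM against 12.8 and 13.1 CPM in the vehicle libraries. After TCE it was 55.2, 44.2 and 44.4 CPM against 9.16, 21.7 and 8.61 CPM. Every treated library lay above every vehicle library of its chemical. The change was 2.29 ± 0.38 for PCE, a 4.89-fold rise (edgeR, adjusted p = 0.00175), and 1.87 ± 0.32 for TCE, a 3.64-fold rise (edgeR, adjusted p = 0.0206). The PCE call was lost without PCE vehicle replicate 2, with a change of 2.31 and adjusted p = 0.0576. The TCE call was lost without vehicle replicate 1 (1.66, adjusted p = 0.191), without treated replicate 1 (1.75, adjusted p = 0.0964) or without treated replicate 2 (1.92, adjusted p = 0.146).

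Intermediate doses show how kidney Fabp1 moved with dose. With PCE the mean was 13.0 ± 0.211 CPM in vehicle (n = 2), 13.0 ± 2.42 at 0.22, 25.5 ± 10.8 at 0.67, 33.9 ± 5.33 at 2 and 63.5 ± 9.50 at 6 mmol/kg (n = 3 each). All 3 libraries at 2 mmol/kg PCE, at 30.6, 40.1 and 31.1 CPM, lay above both vehicles, but the change of 1.39 ± 0.37 did not pass (adjusted p = 0.289). With TCE the means were 13.2 ± 7.41, 10.6 ± 0.462, 12.2 ± 2.96, 21.0 ± 6.99 and 47.9 ± 6.29 CPM. The libraries at 2 mmol/kg TCE overlapped the vehicle, and only those at 6 mmol/kg stood clear of it. As a trend over the dose rank, 0 to 4, Fabp1 rose by 0.62 ± 0.07 per rank with PCE (adjusted p = 0.00107) and had a slope of 0.48 ± 0.10 with TCE (adjusted p = 0.0867).

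Markers of other cells were measured beside this. The 5 hepatocyte markers, all detected in kidney, summed to 369 to 390 CPM in kidney PCE vehicle and 221 to 340 CPM at 6 mmol/kg PCE. For TCE the sums were 443 to 540 and 406 to 582 CPM, which overlap. The 6 macrophage markers, all detected, summed to 59.8 to 80.5 CPM in PCE vehicle and 42.8 to 56.2 CPM at 6 mmol/kg PCE. For TCE the sums were 86.2 to 123.7 and 58.4 to 72.3 CPM, without overlap for either chemical. Only 2 or 3 of the 6 averaged 1 CPM or more in each of these groups. One of them, Adgre1, did not follow the sums. It was at 2.84, 1.75 and 0.952 CPM at 6 mmol/kg PCE against 1.15 and 1.05 CPM in vehicle. For TCE it was at 1.19, 1.67 and 2.50 CPM against 1.18, 1.41 and 1.85 CPM. Over the 29 kidney libraries, Pearson r with the macrophage sums was -0.58 for Fabp1 and -0.55 for Plin2, as a description. The 3 small intestine markers summed to at most 0.333 CPM in any kidney library. Proximal tubule markers summed to 21100.0 to 21248 CPM in PCE vehicle and 15576 to 19458 CPM at 6 mmol/kg PCE, and the part of these changes in the results for Fabp1, Slc27a1 and Plin2 was not tested. The 3 genes whose pattern over the 29 kidney libraries was most like that of Fabp1, chosen for this gene after its values were seen, were Cyp4a14 (Pearson r = 0.898), Acot1 (0.877) and Cyp4a10 (0.872), as log2(CPM + 1). These libraries share groups and dose steps.

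The second kidney gene to rise was Slc27a1. At 6 mmol/kg PCE it measured 139, 74.4 and 96.0 CPM against 51.4 and 55.5 CPM in vehicle, without overlap, a change of 0.95 ± 0.19 or 1.93-fold (edgeR, adjusted p = 0.00528). With TCE it measured 69.4, 58.3 and 63.3 CPM against 55.0, 59.1 and 56.1 CPM, and the groups overlapped (0.17 ± 0.16, 95% interval -0.17 to 0.51). The dose trend was 0.22 ± 0.04 per rank with PCE (adjusted p = 0.0136) and was called in all 21 alternatives, including each library left out. The call at 6 mmol/kg was lost without either PCE vehicle library (adjusted p = 0.0989 and 0.0762), which leaves 1 vehicle that is assumed to vary like the other groups. The 4 brown adipocyte markers, all detected, summed to 15.1, 15.6 and 190.3 CPM in the treated libraries and to 20.1 and 33.1 CPM in vehicle. The part of brown adipose tissue in the Slc27a1 values was not tested.

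Plin2 rose as well in kidney after PCE, by less. It measured 151, 113 and 134 CPM at 6 mmol/kg against 88.3 and 90.2 CPM, a change of 0.57 ± 0.13 or 1.49-fold (edgeR, adjusted p = 0.0120), and its trend was 0.14 ± 0.04 per rank (adjusted p = 0.0370). The trend call was lost without either vehicle library, without any of the 3 libraries at 6 mmol/kg, and without replicates 1 or 2 of 0.22 and replicates 2 or 3 of 2 mmol/kg, with adjusted p from 0.0522 to 0.127. It lost the call at 6 mmol/kg without PCE vehicle replicate 1 (adjusted p = 0.141), without vehicle replicate 2 (0.125) or without treated replicate 1 (0.0818). After 6 mmol/kg TCE it measured 91.3, 111 and 94.6 CPM against 78.7, 91.1 and 88.2 CPM (0.20 ± 0.11, adjusted p = 0.585). Plin2 libraries at 6 mmol/kg TCE lay just above vehicle, the lowest by under 1 CPM.

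Kidney Plin5, low in this tissue, measured 2.76, 1.15 and 1.39 CPM at 6 mmol/kg PCE against 0.884 and 0.797 CPM, on 37 to 69 counts. All treated libraries were higher, yet the change of 1.06 ± 0.41 did not pass (adjusted p = 0.177). Kidney Fabp3 measured 112, 119 and 82.0 CPM at 6 mmol/kg TCE against 78.0, 77.0 and 79.1 CPM (0.42 ± 0.13, adjusted p = 0.178). With PCE it measured 122, 95.6 and 117 CPM against 84.6 and 93.0 CPM (0.33 ± 0.14, adjusted p = 0.246). Vldlr ran from 3.15 to 6.39 CPM over the 29 kidney libraries (0.38 ± 0.19 at 6 mmol/kg PCE, adjusted p = 0.329). Cd36 ran from 11.0 to 26.1 CPM in kidney, with changes at 6 mmol/kg of -0.24 ± 0.26 for PCE and -0.22 ± 0.24 for TCE. Those intervals, -0.78 to 0.31 and -0.72 to 0.27, bound what a change of Cd36 in kidney could have been.

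**Figure D2:**
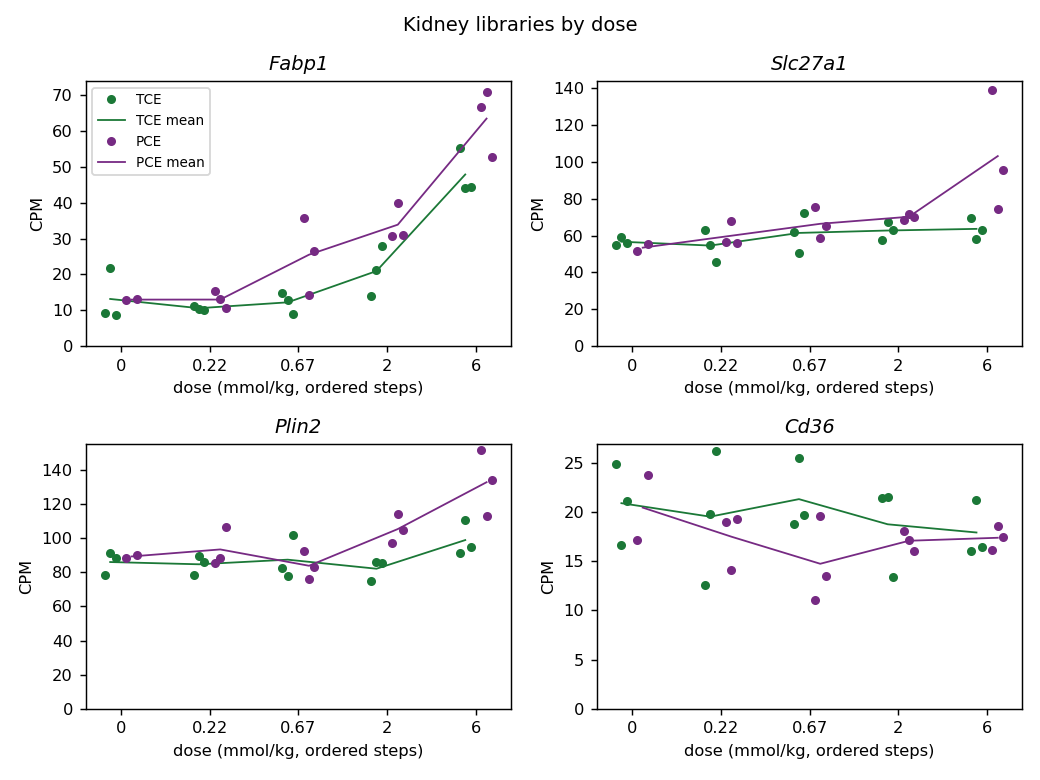
Kidney CPM of Fabp1, Slc27a1, Plin2 and Cd36 in each library (points) and group means (lines) against dose in ordered steps, for TCE and PCE. Fabp1 rises at 6 mmol/kg with both chemicals, Slc27a1 and Plin2 rise with PCE, and Cd36 points overlap at all doses.

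In counts, 3 of the 9 members tested in kidney were called higher at 6 mmol/kg PCE, where 1.77% of all genes were called higher and 3.83% in either direction. Libraries stood entirely above vehicle for 5 of the 9, against 16.7% of genes. For TCE, 1 of 9 was called higher, against 0.0633% called higher and 0.176% called at all, and 5 of 9 lay entirely above vehicle, against 8.1%. The median member difference was 0.95 for PCE and 0.24 for TCE, beside 0.03 and 0.01 over all genes. Without PCE vehicle replicate 2, none of the 9 was called after PCE. Fabp2 was the member not tested in kidney, with 0 counts in 25 of 29 libraries and at most 2. For the PCE trend 3 of 9 were called, all higher, beside 1.94% of genes called higher and 3.37% in all. For the TCE trend edgeR called 0 of 9 and 0.0% of genes, 2 members had an unadjusted p under 0.05, and DESeq2 called 1, Fabp1.

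In liver at 6 mmol/kg PCE, 1 of 9 members was called, Cd36, where 2.28% of genes were called higher and 5.84% in all. Cd36 passed the liver count filter through replicates 1 and 3 of this same group. Its place among the liver members tested is thus not independent of its level there. It had 46, 17 and 73 counts against 7, 1 and 13 in vehicle, that is 0.390, 0.133 and 0.624 CPM against 0.0624, 0.0110 and 0.116 CPM. The lowest treated library was only just above the highest vehicle. The change was 2.52 ± 0.73 (edgeR, adjusted p = 0.0428), and at these counts it rests on few reads. With each library's transcript length and GC slopes as covariates it was -0.01, and all genes called then fell from 770 to 15. The GC slopes, in log2 units per 10 percentage points of transcript GC content relative to the mean library, were -0.22, -0.18 and -0.35 in the treated libraries and 0.04, 0.21 and 0.00 in vehicle, without overlap, so in these 6 libraries the slope and the dose cannot be told apart. With DESeq2 or with the transcript row of the highest count, 0 members were called. Neither is among the 35 alternatives counted for Cd36, and the call was lost in 14 of these 35. Among them were PCE libraries alone (adjusted p = 0.0714), no count filter (0.0597), and leaving out vehicle replicate 1 (0.107) or 2 (0.147) or treated replicate 1 (0.143) or 3 (0.164). Leaving out 1 of 6 libraries of other groups gave adjusted p from 0.0503 to 0.0526.

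The 6 macrophage markers, all detected, summed to 59.3 to 192 CPM in liver PCE vehicle and 110 to 211 CPM at 6 mmol/kg. These sums overlapped. One of the 6, Adgre1, chosen after values were seen, was at 8.68, 9.06 and 4.91 CPM in treated libraries against 3.27, 3.10 and 2.09 CPM. It was thus higher in all 3, which the list as a whole was not. The 4 stellate cell and fibroblast markers (Dcn, Lrat, Reln, Des), all detected, summed to 34.4 to 48.6 CPM in PCE vehicle and 58.7 to 82.4 CPM at 6 mmol/kg PCE. For TCE the sums were 37.3 to 43.9 and 65.5 to 71.5 CPM, so they stood apart from vehicle with both chemicals. The part of these cells in the liver results was not tested. White adipocyte markers summed to at most 0.0593 CPM in these liver libraries, with Lep at 0 in all liver libraries. At the other doses liver Cd36 stayed between 0 and 0.149 CPM with PCE, and the trend was 0.70 ± 0.18 per rank (adjusted p = 0.0266), or -0.15 with the covariates. Without vehicle replicate 2 the trend was 0.64 (adjusted p = 0.0711).

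Fabp2 had the other called trend in liver, 0.18 ± 0.05 per rank with PCE (adjusted p = 0.0320). It measured 92.7, 91.9 and 91.0 CPM at 2 mmol/kg and 89.4, 89.6 and 96.4 CPM at 6 mmol/kg, against 71.9, 57.1 and 51.0 CPM in vehicle. Both dose groups lay wholly above vehicle, while their single-dose changes, each 0.61, did not pass (adjusted p = 0.271 and 0.0968). The trend call was lost without vehicle replicate 2, replicates 2 or 3 of 2 mmol/kg, or any library of 6 mmol/kg, with adjusted p from 0.0504 to 0.0885. It was also lost with the length and GC slopes as covariates, where the trend was 0.16 per rank (edgeR, adjusted p = 0.451). With TCE the libraries at 6 mmol/kg, at 66.2, 70.6 and 66.7 CPM, overlapped the vehicle at 71.0, 54.4 and 33.0 CPM.

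The most abundant member, liver Fabp1, varied within vehicle. It measured 4067, 2639.5 and 1540.5 CPM in TCE vehicle and 5780, 7235 and 6034 CPM at 6 mmol/kg TCE, with no overlap. The change of 1.21 ± 0.33, or 2.31-fold, missed the threshold in edgeR (adjusted p = 0.0736) and passed it in DESeq2 (adjusted p = 0.0141). It also passed without TCE vehicle replicate 1, the highest of its group (1.62, adjusted p = 0.0271), and without replicate 2 of 0.67 mmol/kg (1.21, adjusted p = 0.0490). With PCE the vehicle was already at 4257, 5513 and 3581 CPM, and 6 mmol/kg gave 3227, 5668 and 5728 CPM, a change of 0.13 ± 0.32. The vehicle groups themselves differed by 0.69 ± 0.33 in Fabp1 (adjusted p = 0.480).

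Liver Plin2 measured 621, 636 and 691 CPM at 6 mmol/kg PCE against 488, 329.6 and 543 CPM, all higher, with a change of 0.52 ± 0.26 (adjusted p = 0.207). With TCE it measured 440.1, 759 and 670.0 CPM against 541, 468 and 371 CPM (0.44 ± 0.26, adjusted p = 0.565). Replicate 1 of 6 mmol/kg PCE stood apart for 3 members. It had 35.5 CPM of Plin4 against 6.52 and 4.10 in its replicates, 9.71 CPM of Plin5 against 5.27 and 4.16, and 15.6 CPM of Slc27a1 against 7.52 and 10.5. The same library held 7481 CPM of Cyp4a14, a fatty acid hydroxylase, against 1155 and 2195 CPM. Group changes were 0.71 ± 0.57 for Plin4, 0.56 ± 0.41 for Plin5 and 0.53 ± 0.20 for Slc27a1, and none passed. Without replicate 1 the changes were -0.82 for Plin4, which turns its direction, 0.12 for Plin5 and 0.22 for Slc27a1. Without replicate 2 that of Slc27a1 was 0.75 (adjusted p = 0.0208).

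Fabp3 was low in liver, with 7 to 61 counts, and its changes at 6 mmol/kg were -0.65 ± 0.41 for TCE and -0.74 ± 0.40 for PCE. All 3 TCE libraries, at 0.281, 0.259 and 0.199 CPM, lay below the vehicle, whose lowest was 0.330 CPM. Cidec had 1 to 25 counts, and its changes of 0.39 ± 0.53 for TCE and 0.24 ± 0.54 for PCE were smaller than their SE. Vldlr, at 0 in 12 of 29 liver libraries and at most 4 counts, was not tested there.

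**Figure D3:**
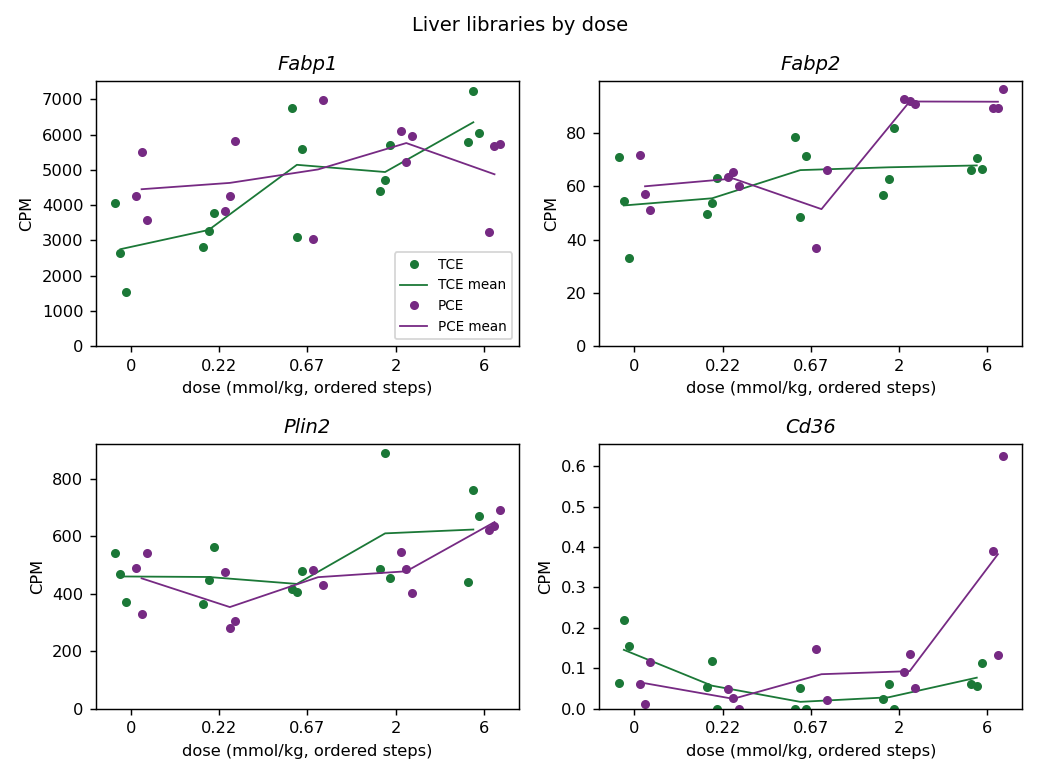
Liver CPM of Fabp1, Fabp2, Plin2 and Cd36 in each library (points) and group means (lines) against dose in ordered steps, for TCE and PCE. Fabp1 points at 6 mmol/kg TCE lie above the TCE vehicle, Fabp2 points at 2 and 6 mmol/kg PCE lie above the PCE vehicle, and Cd36 stays under 1 CPM.

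After the highest TCE dose, 0 of 9 liver members were called by edgeR, 1 had an unadjusted p under 0.05 and DESeq2 called 1 (Fabp1 in each case). Over all genes 1.31% were called and 0.539% called higher. Wholly above vehicle lay 1 member, against 8.07% of genes, and 1 lay wholly below, a direction for which the share of all genes was not computed. For PCE, 3 of 9 lay wholly above (Cd36, Fabp2, Plin2), against 14.4%. The liver PCE trend was called for 2 of 8 members, both higher, beside 11.8% of genes called and 5.07% called higher. Cd36, counted in both of these, passed the filter through the libraries of the highest PCE dose. The liver TCE trend was called by edgeR for 0 of 7, beside 0.851% of genes, 3 of them with an unadjusted p under 0.05, and DESeq2 called 2. Those were Fabp1 and Slc27a1.

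**Figure D4:**
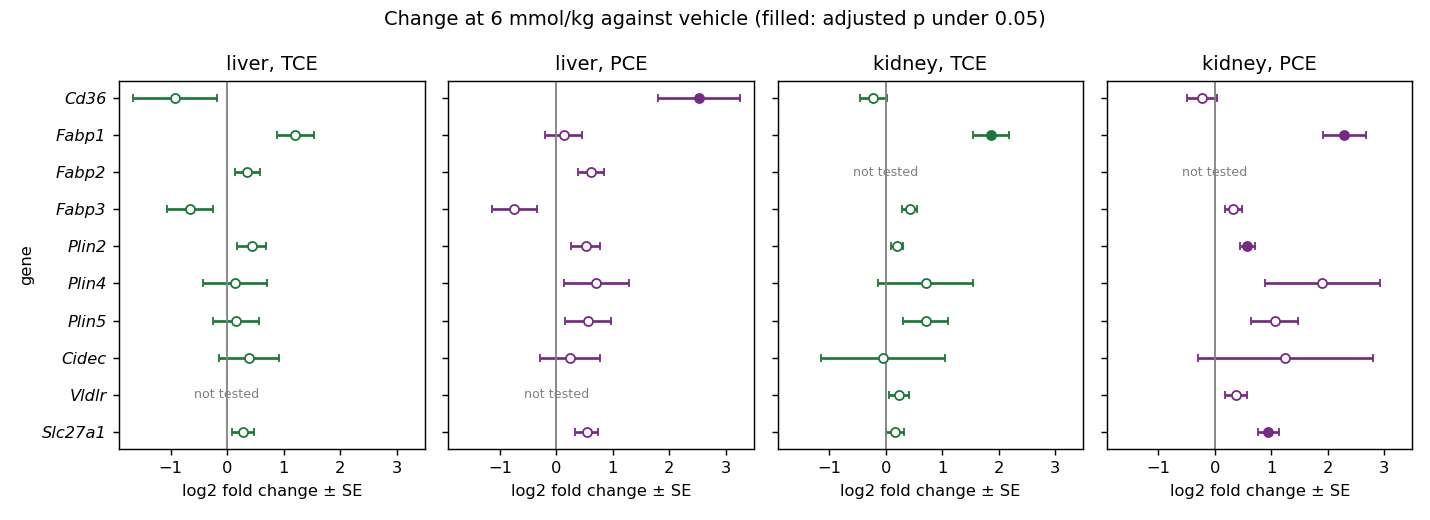
Log2 fold change at 6 mmol/kg against vehicle, with bars of 1 SE, for each member in liver and kidney with TCE and PCE, where filled points have an adjusted p under 0.05. Kidney Fabp1 is filled for both chemicals, Slc27a1 and Plin2 for PCE in kidney, and Cd36 for PCE in liver.

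At the lower doses nothing in the group passed. Over 12 comparisons and 108 tests of members, edgeR called 0, 10 had an unadjusted p under 0.05, and DESeq2 called 1, kidney Fabp1 at 2 mmol/kg PCE (adjusted p = 0.0223). Over all genes, edgeR gave an unadjusted p under 0.05 to 606 to 1762 of 14216 in a lower-dose comparison in kidney. In liver it did so for 580 to 1530 of 13174 genes. The doses of a chemical share its vehicle libraries, so these tests are not independent. Few genes of any kind were called at these doses. The share in kidney was 0.0141% at 2 mmol/kg PCE, 0.00703% at 0.67 mmol/kg TCE and 0.0% at the other lower doses. In liver it was 0.182% at 2 mmol/kg PCE, 0.00759% at 0.22 and 0.67 mmol/kg PCE and at 0.67 and 2 mmol/kg TCE, and 0.0% at 0.22 mmol/kg TCE. Between PCE and TCE vehicles no member was called by edgeR or DESeq2, with 1 of 18 tests at an unadjusted p under 0.05 and 0.0% of genes called in either tissue. Some vehicles still did not overlap. Liver Plin4 was at 3.74 to 5.83 CPM in TCE and 8.76 to 10.5 CPM in PCE vehicle. Kidney Plin5 was at 0.438 to 0.645 and 0.797 to 0.884 CPM, and kidney Fabp3 at 77.0 to 79.1 and 84.6 to 93.0 CPM. The share of all genes without overlap was not computed here.

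The chemicals were compared at equal molar doses, as the PCE change minus the TCE change, with p adjusted over all genes. None of 72 member differences was called by edgeR or DESeq2, and 5 of the 95% intervals left out 0, of which 4 at 6 mmol/kg. Over all genes at 6 mmol/kg, edgeR gave an unadjusted p under 0.05 to 1086 of 14216 in kidney and 1169 of 13174 in liver. At the lower doses this number ran from 598 to 2279 in kidney and from 631 to 914 in liver. In kidney at 6 mmol/kg, Slc27a1 had a difference of 0.78 ± 0.25 (interval 0.27 to 1.29, adjusted p = 0.392) and Plin2 one of 0.37 ± 0.17 (0.02 to 0.73, adjusted p = 0.630). Set directly against each other without the vehicles, the PCE and TCE libraries differed in Slc27a1 by 0.70 (adjusted p = 0.0428). Kidney Fabp1 differed by 0.43 ± 0.48, with an interval of -0.56 to 1.42. In liver, Cd36 differed by 3.44 ± 1.04 (1.29 to 5.60, adjusted p = 0.352) and Fabp1 by -1.08 ± 0.46 (-2.03 to -0.13, adjusted p = 0.536). Liver Cd36 passed the count filter through the PCE libraries at 6 mmol/kg. The intervals of Plin2 in liver, -0.67 to 0.83, and Fabp3 in kidney, -0.49 to 0.30, show what size of difference remains possible. Over all genes, 0.0211% were called in kidney at 6 mmol/kg, 0.0228% in liver at 0.67 mmol/kg and 0.0% elsewhere.

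Tissues were compared in the same way, as the kidney change minus the liver change at 6 mmol/kg. Liver and kidney libraries were treated as separate samples, and whether any come from the same animal was not checked. For PCE, 2 of the 8 members that passed the count filter in both tissues differed, beside 0.709% of genes. Fabp1 responded more in kidney by 2.17 ± 0.52 (edgeR, adjusted p = 0.0282), having risen 4.89-fold there from a level far below that of liver. Cd36 responded more in liver, with a difference of -2.74 ± 0.64 (edgeR, adjusted p = 0.0243), on the few liver reads given above. The liver PCE group at 6 mmol/kg also carried Cd36 through the liver count filter. Both calls were lost without kidney PCE vehicle replicate 2, at adjusted p = 0.207 and 0.176, and without kidney treated replicate 1, liver vehicle replicate 2 or liver treated replicate 1. Fabp1 lost it also without kidney vehicle replicate 1 or kidney treated replicate 2, and Cd36 without liver vehicle replicate 1 or liver treated replicate 3, with adjusted p from 0.0540 to 0.168. For TCE, 0 of these 8 were called by edgeR or DESeq2, 1 had an unadjusted p under 0.05, and 0.328% of genes were called. Fabp2 in kidney, at 0 in the groups compared, and Vldlr in liver, at most 4 counts, give no usable difference of responses.

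Plin4 and Cidec varied widely in kidney within most groups, and neither was called. Plin4 measured 8.07, 28.0 and 6.54 CPM in TCE vehicle, 3.77, 24.7 and 68.1 CPM at 0.67 mmol/kg TCE, and 19.7, 41.7 and 8.13 CPM at 6 mmol/kg TCE. With PCE it measured 2.84 and 9.08 CPM in vehicle, 21.1, 20.0 and 24.8 CPM at 0.22 mmol/kg and 28.6, 6.45 and 32.5 CPM at 6 mmol/kg. All 3 libraries at 0.22 mmol/kg PCE lay above both vehicles, for Plin4 and also for Cidec, with 0.632, 0.518 and 0.288 CPM against 0 and 0.223 CPM. In all, 3 of 9 members tested lay so at this dose, and the share of all genes was not computed. The changes of Plin4 and Cidec there, 1.87 ± 1.02 and 1.97 ± 1.47, did not pass (adjusted p = 0.832 and 0.861). The top Plin4 value, 68.1 CPM, came from the library with the adrenal cortex genes, and over the other 28 kidney libraries Plin4 ran from 2.84 to 41.7 CPM. Cidec ranged from 0 to 1.78 CPM and 0 to 56 counts, with its top value in that same library. Changes at 6 mmol/kg PCE were 1.90 ± 1.02 for Plin4 and 1.24 ± 1.55 for Cidec, and no dose was called for either gene.

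The adipocyte genes varied with them. The 5 white adipocyte markers (Adipoq, Retn, Cfd, Lep, Plin1) were all detected in kidney and summed to between 0.526 and 83.3 CPM, the highest again in the library with the adrenal cortex genes and the next at 48.0 CPM. By group, they summed to 6.07 to 42.7 CPM in TCE vehicle and 6.77 to 48.0 CPM at 6 mmol/kg TCE, and to 0.615 to 10.4 CPM in PCE vehicle and 1.20 to 46.1 CPM at 6 mmol/kg PCE. At 0.22 mmol/kg PCE they summed to 27.4 to 31.5 CPM, wholly above the vehicle, as Plin4 and Cidec were. Across the 29 kidney libraries, on log2(CPM + 1), Pearson r with Adipoq was 0.856 for Plin4 and 0.870 for Cidec, as a description. One library left that line, replicate 1 of 6 mmol/kg PCE, with 28.6 CPM of Plin4 but 0.920 CPM of Adipoq and 0.0800 CPM of Cidec. Without it, a choice made after seeing the values, r was 0.966 for Plin4 and 0.873 for Cidec. The part of adipose tissue in these values was not tested. In that same library Slc27a1, Plin2 and Plin5 were the highest of all 29 kidney libraries, and Cyp4a14 was at 2480 CPM against 361.5 and 295 CPM in its replicates.

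**Figure D5:**
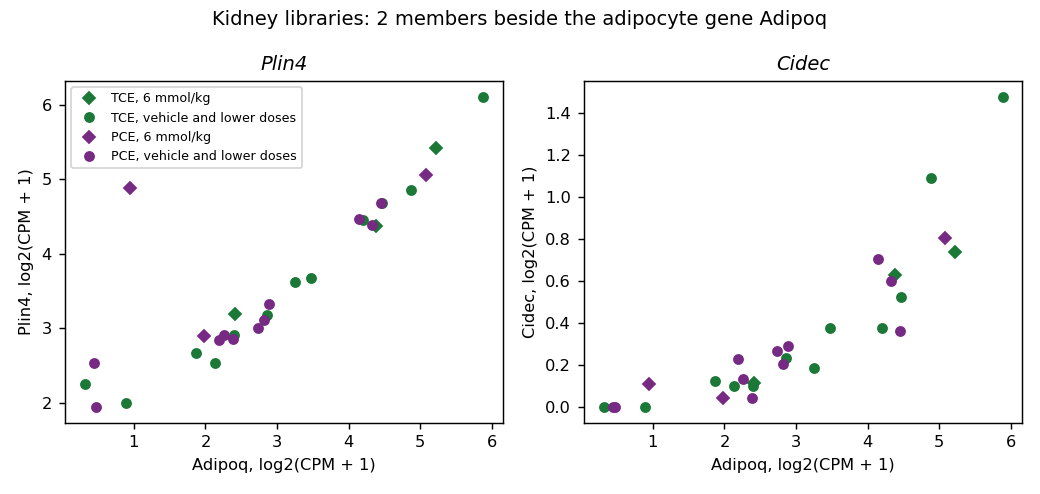
Plin4 (left) and Cidec (right) against the adipocyte gene Adipoq in the 29 kidney libraries, all as log2(CPM + 1), with diamonds for 6 mmol/kg and circles for vehicle and lower doses. Plin4 and Cidec rise with Adipoq across libraries of all doses, and 1 diamond of 6 mmol/kg PCE lies high in Plin4 at low Adipoq.

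A rule for 4 members named the genes most like them over the 29 libraries of a tissue by Pearson r. In kidney, Cidec was most like Serpina3c (0.939), the adipokine gene Retn (0.936) and Abcd2 (0.926). Plin4 was most like Trf, which encodes transferrin (0.913), Aoc3 (0.885) and Bche (0.883). Plin2 was most like Ipo5 (0.849), 2410006H16Rik (0.847) and Angptl8 (0.846), and Cd36 most like Atrnl1 (0.900), Nudt12 (0.828) and Atp6v1a (0.827). In liver, Plin2 was most like Cpt2, an enzyme that brings fatty acids into mitochondria (0.872), Chrna2 (0.798) and Palmd (0.775). Liver Plin4 was most like Brpf3 (0.800), Aifm2 (0.757) and Ciart (0.752). Cd36 and Cidec had few liver reads, and their nearest genes reached 0.832 (Gm12505) and 0.631 (Gp5), with Unc79 (0.806) and Prex2 (0.789) next for Cd36 and BC031361 (0.613) for Cidec, after an unnamed transcript.

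Promoters of all 10 members were searched for the element through which PPARα acts, and the matching stretches are printed because they belong to Fabp1, Plin2 and Cd36, which are called in the comparisons above. That element is DR1, which PPAR binds with RXR, written as 2 copies of AGGTCA in the same direction with 1 base between them. Up to 2 mismatches in its 12 fixed bases were allowed on both strands, within 250 bases before to 50 after each start in the RefSeq promoter table (GRCm38.p6). The members had 15 windows in all, and 3 members had a match lying before the start. Over all 32851 windows 3.86% matched at up to 2 mismatches and 0.554% at up to 1. Of the members, Fabp1 alone matched at 1 mismatch. The matches are shown with neighbouring bases, on the strand of the gene from 5′ to 3′, with the 13 bases of the match in capitals, in each case the element read on the opposite strand.
Fabp1: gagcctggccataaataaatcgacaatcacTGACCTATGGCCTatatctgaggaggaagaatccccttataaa
Plin2: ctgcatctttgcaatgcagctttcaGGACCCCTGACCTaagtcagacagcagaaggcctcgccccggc
Cd36: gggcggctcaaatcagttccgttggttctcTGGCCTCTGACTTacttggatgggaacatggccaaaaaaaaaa

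The Fabp1 stretch is chr6:71199782-71199854 on the plus strand, with the match at bases -67 to -55 from the start. The Plin2 stretch is chr4:86670242-86670309 on the minus strand, with the match at -225 to -213 and 2 mismatches. The Cd36 stretch is chr5:17835917-17835989 on the minus strand, with the match at -63 to -51 and 2 mismatches. Its start lies inside the span of the gene, 17781690 to 17888959, and no other Cd36 start was searched. Slc27a1, which also rose in kidney, had at least 4 mismatches in its 3 windows. These are matches of letters and were not tested as binding sites.

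The other genes of the pathway are counted beside the shares of all genes called at 6 mmol/kg, which were 3.83% in kidney and 5.84% in liver for PCE, and 0.176% and 1.31% for TCE. Of 12 PPARα targets outside the group, 10 rose and 0 fell in kidney at 6 mmol/kg PCE, 9 rose in liver with PCE and 7 in liver with TCE. None passed in kidney with TCE by edgeR, where 6 had an unadjusted p under 0.05 in the higher and 1 in the lower direction, and DESeq2 called 2. Their medians were 2.09, 1.87, 2.06 and 0.50, beside medians near 0 over all genes. The most certain were the thioesterase Acot1 in kidney with PCE (2.38 ± 0.29, adjusted p = 8.91e-05), the peroxisomal enzyme Ehhadh in liver with PCE (3.36 ± 0.40, adjusted p = 5.80e-05) and the thiolase Acaa1b in liver with TCE (2.15 ± 0.29, adjusted p = 0.000919). Cyp4a14 changed by 6.63 ± 1.03 in kidney with PCE and by 9.26 ± 1.42 and 7.84 ± 1.34 in liver with PCE and TCE. In kidney with TCE its change of 3.19 ± 0.74 did not pass (adjusted p = 0.0821). Acot1 and Cyp4a14 have close relatives, so their counts are uncertain in level.

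Of 24 other genes of fatty acid uptake, binding and activation, 18 were tested in kidney and 21 in liver. At 6 mmol/kg PCE 1 rose in kidney, and 3 rose and 1 fell in liver. At 6 mmol/kg TCE 2 rose in liver and 0 passed in kidney by edgeR or DESeq2, with 3 at an unadjusted p under 0.05. Angptl4, a secreted inhibitor of lipoprotein lipase, rose in kidney with PCE (2.77 ± 0.39, adjusted p = 0.000432), in liver with TCE (2.02 ± 0.34, adjusted p = 0.00289) and in liver with PCE (1.41 ± 0.33, adjusted p = 0.0178). Slc27a2, a relative of Slc27a1 that serves very long fatty acids, rose in liver, by 1.28 ± 0.17 after PCE (edgeR, adjusted p = 0.000260) and 0.91 ± 0.17 after TCE (edgeR, adjusted p = 0.00699). In kidney its changes were 0.16 ± 0.12 and -0.30 ± 0.10, neither of which passed. Lpl, the lipase itself, changed by 1.39 ± 0.35 in liver with TCE (adjusted p = 0.0516), and Acsl1, which activates fatty acids, by 1.06 ± 0.31 in kidney with PCE (adjusted p = 0.0521). Neither gene passed in any tissue or chemical at 6 mmol/kg.

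Of 17 other lipid droplet genes, 15 were tested in kidney and 13 in liver. In kidney 0 rose and 2 fell at 6 mmol/kg PCE, while 2 rose in liver with each chemical. Hsd17b11, a droplet dehydrogenase, rose in liver by 1.29 ± 0.15 with PCE (edgeR, adjusted p = 5.80e-05) and 1.30 ± 0.15 with TCE (edgeR, adjusted p = 0.000185) and fell by 0.69 ± 0.16 in kidney with PCE (adjusted p = 0.0143). Cideb, a relative of Cidec, fell by 0.60 ± 0.11 in kidney with PCE (adjusted p = 0.00366). G0s2 and Hilpda, which inhibit droplet lipolysis, did not pass at 6 mmol/kg in either tissue. G0s2 changed by 0.81 ± 0.26 in kidney and -1.36 ± 0.53 in liver with PCE, and Hilpda, under 1 CPM on average, by 0.44 ± 0.52 and -0.05 ± 0.29.

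Of 18 genes of triglyceride synthesis and lipoprotein assembly, 17 were tested in each tissue, and 1 rose in kidney while 3 rose and 2 fell in liver at 6 mmol/kg PCE. Gpam, which starts glycerolipid synthesis, rose in kidney (0.85 ± 0.18, adjusted p = 0.00675), and Gpat3, another acyltransferase, rose in liver (0.98 ± 0.24, adjusted p = 0.0200). Among 10 regulators, Creb3l3, a liver and gut transcription factor, rose in kidney with PCE (2.97 ± 0.56, adjusted p = 0.00346). Ppard fell in liver, by 2.17 ± 0.33 after TCE (edgeR, adjusted p = 0.00151) and by 1.31 ± 0.32 after PCE (edgeR, adjusted p = 0.0206). Ppara had changes of 0.80 ± 0.31 in kidney and 0.31 ± 0.34 in liver with PCE, and Pparg of -0.21 ± 0.34 and -0.02 ± 0.63, none of which passed. After 6 mmol/kg TCE in kidney, 0 genes of the droplet, triglyceride and regulator lists were called by edgeR or DESeq2, with 1, 5 and 2 at an unadjusted p under 0.05.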

How the data were processed

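TruSeq libraries of total RNA were read on a HiSeq-2000, per the labels' protocols. Each tissue has a deposited table of read counts by RefSeq transcript, not normalized. For the columns deposited for 0.22 and 0.67 mmol/kg, the name estimated counts rests only on the decimal in their dose line. Before deposit these estimated counts were handled as read counts by transcript, not normalized, and all their values are whole reads, per the file headers. They entered the same fits as the other columns, without a separate step. CASAVA 1.8.2, TopHat2 2.0.10, HTSeq and mm10 are named in the submitters' processing notes. Strand setting, annotation version and the time from dose to sampling are not given in the sources used here. Reads that matched several features (19.68 to 22.55% of a library) or none (14.29 to 27.53%) stayed out of totals and tests.

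Rows were summed by symbol, 32988 by accession in the GRCm38.p6 RefSeq table, 278 by deposited symbol and 126 unnamed. Each dose was compared with the vehicle of its chemical in edgeR 4.0.16 (R 4.3.3), with TMM, filterByExpr, a robust quasi-likelihood fit over the 10 groups of a tissue (13174 genes in liver, 14216 in kidney) and Benjamini-Hochberg adjustment, two-sided. Trends used the dose rank within 1 chemical and tissue, and tissue comparisons 1 fit of 58 libraries. Each SE was derived from the log2 fold change and its F statistic. The steps were tested on simulated data. Alternatives were DESeq2 1.42.0, its size factors in edgeR, no count filter, PCE or TCE libraries alone, pooled vehicles, a replicate block, covariates, the row with the highest count, a log dose scale, a contrast without vehicles and each library left out.

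Replicate numbers were not used to pair samples within a tissue. Whether a liver and a kidney library of the same number come from the same animal is not given in the labels and was not checked. Labels do not say that replicates are separate animals, so p-values cover only the spread among samples, which may be technical. Members, gene lists and tests were chosen with earlier results of these data known. Text names all members, the 3 genes most like Cd36, Plin2, Plin4 and Cidec per tissue, the called gene of each list with the smallest adjusted p at 6 mmol/kg, and Angptl4, Hilpda, G0s2, Acsl1, Lpl, Ppara, Pparg and Cyp4a14. Other genes, such as Fabp1's neighbours in pattern, Adgre1, Ucp1 and Adipoq as markers, were chosen after values were seen. Positions are 1-based on GRCm38.p6. Protein sequences were not used here.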

Additional observations from a re-analysis of the deposited data

Results flagged for a closer look

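The response of 2 members to 6 mmol/kg PCE differed between tissues by a test of the difference itself. The kidney change of Fabp1 exceeded the liver change by 2.17 on the log2 scale, and that of Cd36 lay below it, at -2.74, both with edgeR's quasi-likelihood test over all 58 libraries. The sign was the same in the 28 alternatives run. Length and GC slopes as covariates were not among them, and within liver that setting took the Cd36 response to PCE from 2.52 to -0.01. The Fabp1 call was lost in 6 of them and the Cd36 call in 7, including both without kidney PCE vehicle replicate 2, one of only 2 libraries in that group.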

How the results depend on the processing

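The 6 called tissue differences in vehicle of members that passed the filter in both tissues held in all 28 alternatives, and the kidney PCE trends of Fabp1 and Slc27a1 in all 21. Numbers of members called moved as follows. With DESeq2, 1 was called in kidney at 2 mmol/kg PCE, 1 in the kidney TCE trend, 1 in liver at 6 mmol/kg TCE, 2 in the liver TCE trend, 1 in the liver PCE trend and 0 in liver at 6 mmol/kg PCE, where DESeq2 gave Cd36 no adjusted p. With pooled vehicles, 1 was called in kidney and 1 in liver at 2 mmol/kg PCE, and 5 and 3 at 6 mmol/kg PCE. With slopes on length and GC content as covariates, 0 were called in liver at 6 mmol/kg PCE, 0 in the liver PCE trend and 1 in liver at 6 mmol/kg TCE, and Cd36 turned to -0.0146 at 6 mmol/kg PCE and -0.15 in the trend. With 1 chemical alone, 0 were called in kidney at 6 mmol/kg TCE and 0 in liver at 6 mmol/kg PCE. The highest transcript row gave 0 in liver at 6 mmol/kg PCE, 1 in the liver PCE trend and 1 in the tissue difference. No count filter gave 0 in liver at 6 mmol/kg PCE, and the direct contrast gave 1 in kidney at 6 mmol/kg. The cause was not tested.

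With 1 library left out, members called ranged from 0 to 3 in kidney and 0 to 2 in liver at 6 mmol/kg PCE, 0 to 2 in kidney and 0 to 1 in liver at 6 mmol/kg TCE, 0 to 2 in the PCE tissue difference, 2 to 3 in the kidney and 0 to 3 in the liver PCE trend, and 0 to 1 in both TCE trends. The Plin2 kidney trend lost its call in 10 of 21 alternatives and the Fabp2 liver trend in 7. Over all genes, calls at 6 mmol/kg ran over the alternatives that kept all libraries from 392 to 1304 in kidney and 15 to 1715 in liver with PCE (545 and 770 as reported), and from 11 to 138 and 43 to 353 with TCE (25 and 172).

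Replicate numbers were checked within each tissue, over 126 same-number pairs. The median correlation of deviations was 0.00822 in kidney and -0.00724 in liver, so within a tissue they were taken to share only a number. Pairs of a liver with a kidney library were not checked. The replicate block gave 0 members in liver at 6 mmol/kg PCE, and the Plin2 kidney trend had adjusted p = 0.0654. Counts were low for Cd36 (0 to 73) and Cidec (1 to 25) in liver and for Cidec (0 to 56) and Plin5 (9 to 69) in kidney, and Vldlr in liver and Fabp2 in kidney were not tested against dose.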
